A study of Homo sapiens with 4 samples.

Results

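Messages for the proteins of the mitochondrial ribosome were measured after knockdown of MIF (MIF-KO) or with a control hairpin (CTR-KO) in MM.1S and ARP-1. Both are established human lines of multiple myeloma, which is a plasma cell cancer. The genes were taken by symbol: each probe set with exactly 1 annotated symbol that began with MRPL or MRPS and a number was kept. This gave 87 of 53617 probe sets and 78 of the 14884 named genes. Of the 78 symbols, 73 name proteins, 48 of the large subunit (MRPL) and 25 of the small subunit (MRPS), and these 73 are the protein genes described here. The other 5 are 3 pseudogenes and 2 antisense transcripts and are described apart. A gene was represented by the probe set with the highest mean over the 4 arrays.

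The study asked what changes when MIF, a secreted cytokine, is lowered in myeloma cells. There was 1 whole-transcript array for each condition in each line: MIF-KO ARP-1, MIF-KO MM.1S, CTR-KO ARP-1 and also CTR-KO MM.1S. All cells carried a lentiviral short hairpin RNA, directed at MIF in MIF-KO cells and a control hairpin in CTR-KO cells, and had been sorted for the green marker of the virus. A hairpin lowers a transcript and leaves the gene in place, so KO is the labels' word for a knockdown. The labels give 1 array per condition in each of 2 established lines and name no separate cultures. Any p-value thus measures only the spread between these 4 samples. In the model used here that spread is the disagreement of the lines, and part of it may be technical. Titles and genotype labels were used for the groups, but on each ARP-1 array the free-text description gives the condition of the other one. MIF itself followed the titles, with intensities of 541 in MIF-KO ARP-1 and 405 in MIF-KO MM.1S, against 1092 in CTR-KO ARP-1 and 1012 in CTR-KO MM.1S. Array medians lay between 13.1 and 13.3. The 6 measured plasma cell and myeloma markers of a list of such genes (SDC1, CD38, IRF4, XBP1, SLAMF7 and MZB1) lay between 41.0 and 4380. Of 5 measured markers of other cell types, CD14, LYZ, EPCAM and ALB were at 10.5 or below on every array, and KRT18, a keratin, reached 203.

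Mitochondria hold their own ribosomes, which translate the few messages of the mitochondrial genome, all of them for subunits of the respiratory chain and the ATP synthase. Their RNAs are transcribed inside the organelle, whereas every protein of the particle is encoded in the nucleus, made in the cytosol and imported. The small subunit reads the message at its decoding centre. The large subunit joins amino acids and passes the new chain out through an exit tunnel that faces the inner membrane. Many of the proteins have counterparts in bacterial ribosomes, and others occur only in mitochondria.

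In ARP-1, most of these genes had lower values in MIF-KO cells, and in MM.1S most had slightly higher values. The median difference (log2 intensity in MIF-KO minus CTR-KO) of the 73 protein genes was -0.39 in ARP-1, with 68 genes below 0 and 5 above. In MM.1S it was 0.14, with 57 genes above 0 and 16 below. Over all 7442 tested genes (mean intensity at or above the median of all genes) the medians were -0.03 in ARP-1 and 0.04 in MM.1S. A difference of at least 1.5-fold lower in MIF-KO ARP-1 was met by 21 of the 73, and by 11.9% of all tested genes. The same size in the other direction was met by 1 protein gene, MRPS14, and by 10.9% of tested genes. In MM.1S 6 protein genes were higher in MIF-KO cells by 1.5-fold or more, against 5.12% of tested genes, and 0 were as much lower, against 2.89%. Within a line there was 1 array per condition, so these differences carry no error and were not tested. With RNA of a whole culture, fewer cells of a type and less RNA per cell cannot be told apart.

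Over both lines no gene passed the test. The limma fit with terms for line and condition called 0 of 73 protein genes and 0% of the 7442 tested genes for condition (Benjamini-Hochberg adjusted p below 0.05), with a lowest adjusted p of 0.99995. At an unadjusted p below 0.05 it found 29 genes, of which 0 were mitochondrial ribosomal proteins. Of the 73 proteins 72 entered the fit, and MRPL23 was below the filter. The fit's error is the disagreement of the lines, and for these genes that disagreement was the main part of the variation. Of their total sum of squares over the 4 arrays, 66.6% was the difference between the lines in response, 20.9% the shared difference by condition and 12.5% the shared difference by line. The same shares over all tested genes were 55%, 18.5% and 26.5%. The shares for the difference in response and for condition trade places if the ARP-1 arrays are exchanged. With the ARP-1 arrays exchanged, as their descriptions read, the fit called 401 of the 7442 tested genes. Of the 72 proteins in the fit it called only MRPL15, MRPL4 and MRPS25, a share not above that of all tested genes.

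The opposite direction in the lines was common in these genes and frequent in the whole data. A lower MIF-KO value in ARP-1 together with a higher one in MM.1S, at any size, was found for 54 of the 73 protein genes and for 37.5% of tested genes. The reverse held for 2, MRPS14 and MRPS33, against 2239 of the 7442 tested genes. Lower in MIF-KO cells of both lines were 14, against 1102 tested genes, and higher in both were 3, against 1308. Only MRPL15 and MRPL4 were at least 1.5-fold lower in ARP-1 and as much higher in MM.1S, against 3.24% of tested genes. Read by array, 51 of the 73 protein genes had their highest value in CTR-KO ARP-1, against 2386 of the 7442 tested genes. The lowest value was in MIF-KO ARP-1 for 47 protein genes, against 2185 tested genes. Both at once held for 35 protein genes, against 14.4% of tested genes. Relative to the mean of each gene, the median protein gene stood at -0.20 in MIF-KO ARP-1 and 0.07 in MIF-KO MM.1S, against 0.22 in CTR-KO ARP-1 and -0.11 in CTR-KO MM.1S on the log2 scale. The ARP-1 arrays thus lay at the extremes and the MM.1S arrays between them.

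**Figure D1:**
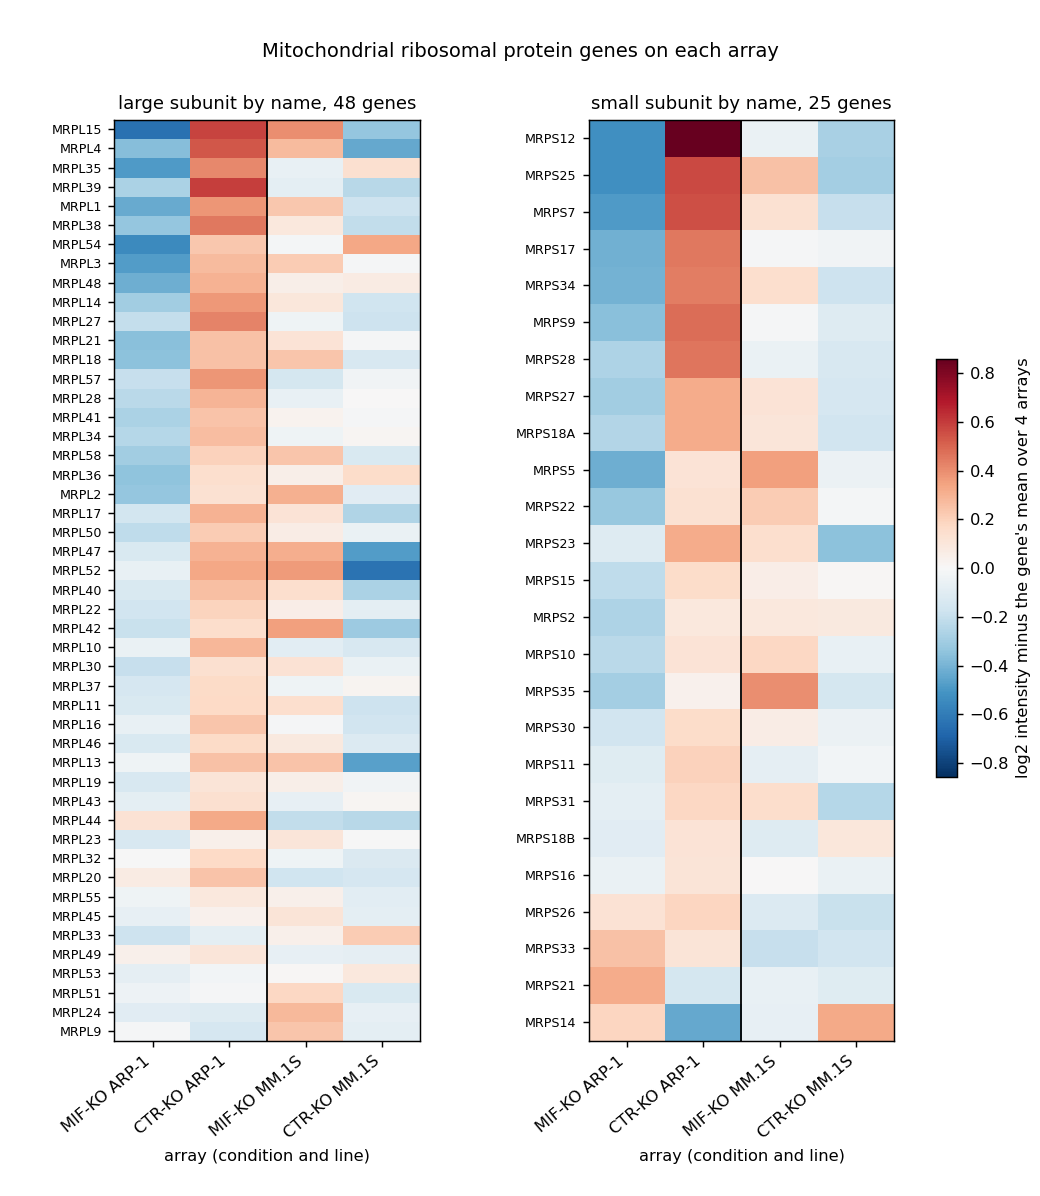
Heat map of the 48 large subunit and 25 small subunit genes (rows, ordered by the ARP-1 difference) on the 4 arrays (columns); colour is log2 intensity minus the mean of the gene over 4 arrays. The MIF-KO ARP-1 column is mostly blue and the CTR-KO ARP-1 column mostly red, with medians of -0.20 and 0.22.

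The large and the small subunit had similar medians in each line. In ARP-1 the 48 large subunit genes had a median difference of -0.39 (SD over genes 0.28) and the 25 small subunit genes one of -0.38 (SD over genes 0.46). At least 1.5-fold lower in MIF-KO ARP-1 were 13 of 48 large and 8 of 25 small subunit genes. In MM.1S the medians were 0.15 for the large and 0.12 for the small subunit, with 36 of 48 and 21 of 25 genes above 0. All 6 genes at least 1.5-fold higher in MIF-KO MM.1S were of the large subunit, and with a stricter intensity filter the count was 4. The small subunit genes MRPS35 and MRPS25 lay just under that size, both at 0.55 in MM.1S. PTCD3, a small subunit protein under another symbol, passed it at 0.72. No test was run between the subunits, because their genes share the same 4 arrays. MRPS30 and MRPS18A, named for the small subunit, sit in the large one in known structures. Counted by structure, the medians were -0.39 for 50 large and -0.38 for 23 small subunit genes in ARP-1, and 0.15 and 0.10 in MM.1S.

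Across the 73 genes, the difference in ARP-1 and that in MM.1S correlated at r = -0.28 (Spearman's rho -0.25). Within the large subunit r was -0.14 (rho -0.11, n = 48 genes), and within the small subunit it was -0.54 (rho -0.49, n = 25 genes). Over all 7442 tested genes r was -0.55 (rho -0.53). Each of these correlations rests on the titles of the ARP-1 arrays and changes sign if those arrays are exchanged. These are descriptions across genes, which share the 4 arrays and are not independent replicates.

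**Figure D2:**
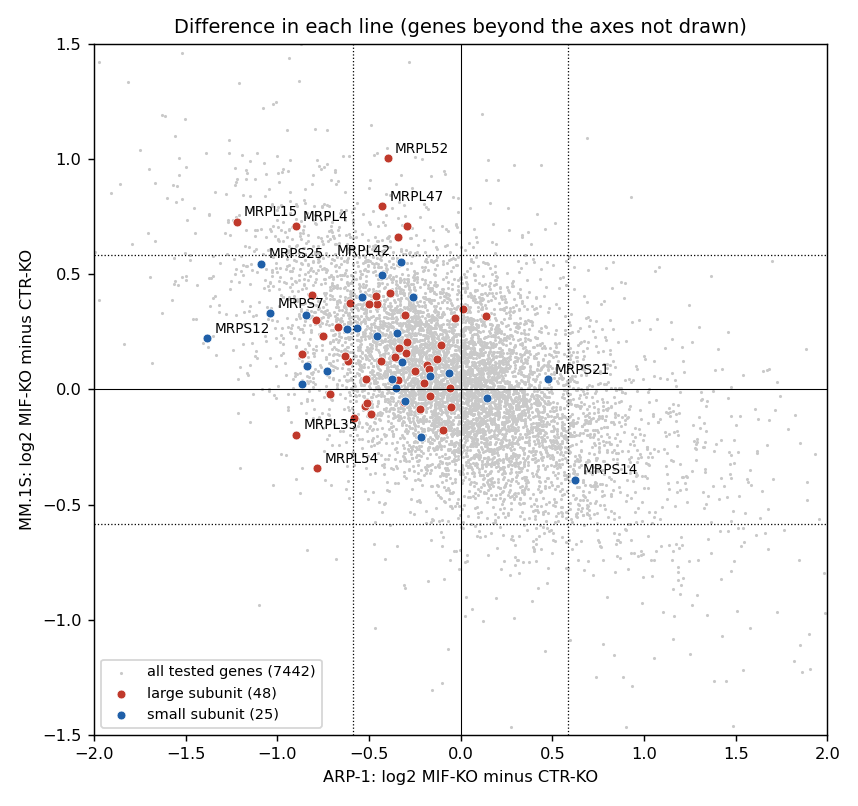
Log2 MIF-KO minus CTR-KO in ARP-1 (horizontal axis) and in MM.1S (vertical axis) for the 73 protein genes (coloured points, 48 large and 25 small subunit) and all 7442 tested genes (grey); dotted lines mark 1.5-fold. Most coloured points, 54 of 73, lie above and to the left of the zero lines, with MRPS14 and MRPS21 apart on the right.

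Promoter sequence was looked at because so many of these genes differed in the same direction. RefSeq promoters (build GRCh38.p14, 250 bases before to 50 after the start) were matched for 65 of the 73 protein genes. Short motifs were searched on both strands, with matches to different motifs counted independently where they overlap. Genes of the mitochondrial ribosome are known to be controlled in part by ETS-family factors, NRF1 and YY1. The ETS motif CCGGAAG was present in 28 of 65 promoters (43.1%), in 20.8% of the promoters of tested genes and in 10.7% of all 27305 promoters. The YY1 motif AAGATGGCG was present in 12 (18.5%), against 4.59% of tested genes and 1.85% of all promoters. For the NRF1 motif GCGCANGCG the count was also 12 (18.5%), against 15.8% of tested genes and 8.05% of all. The E-box CACGTG, the site of MYC and MAX among other factors, was present in 5 (7.69%), against 10.7% and 7.43%. A match is a description of the sequence and not a site of binding.

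Promoters of the genes at least 1.5-fold lower in MIF-KO ARP-1 held the ETS motif in 7 of 17 cases (41.2%), and those of the other members in 21 of 48 (43.8%). The YY1 motif was present in 1 of 17 (5.88%) against 11 of 48 (22.9%), and the NRF1 motif in 2 of 17 (11.8%) against 10 of 48 (20.8%). For the E-box the counts were 0 of 17 and 5 of 48. These counts are descriptions and were not tested. Members with an ETS match had medians of -0.39 in ARP-1 and 0.20 in MM.1S (28 genes), and members without had -0.36 and 0.13 (37 genes). The 12 members with a YY1 match had medians of -0.35 and 0.17, and the 53 without had -0.39 and 0.15. In the same order, the 12 members with an NRF1 match had -0.35 and 0.06, against -0.39 and 0.20 for the 53 without.

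The 120 bases before the start are shown for 6 genes, each 5′ to 3′ on the strand of the gene, with motif matches in capitals. The 6 genes were chosen after their values were seen and do not span the range of differences. MRPS14, the highest in ARP-1 at 0.62, is not among them. MRPS14, MRPS25, MRPS7 and MRPL4, which are not shown, held no match to any of the motifs in the whole promoter window. MRPS12, MRPS34 and MRPS9 were at least 1.5-fold lower in MIF-KO ARP-1, MRPL47 and MRPL52 were as much higher in MIF-KO MM.1S, and MRPS21 was higher in MIF-KO cells of both lines. MRPS12 (chr19:38930824-38930943, plus strand) held no match wholly before its start. MRPS34 (chr16:1773135-1773254, minus strand) held 3 ETS matches, and MRPL47 (chr3:179604639-179604758, minus strand) and MRPS21 (chr1:150293741-150293860, plus strand) held 1 ETS match each. MRPS9 (chr2:105037949-105038068, plus strand) held 1 NRF1 match, and MRPL52 (chr14:22829767-22829886, plus strand) held 2 YY1 matches. In the window counted above, MRPS12 and MRPL52 also had 1 ETS match each, and MRPS21 had 2 in all. The added matches reached past the start and are not marked below.
MRPS12: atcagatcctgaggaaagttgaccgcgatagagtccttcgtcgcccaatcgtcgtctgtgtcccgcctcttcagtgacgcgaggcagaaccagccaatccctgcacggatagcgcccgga
MRPS34: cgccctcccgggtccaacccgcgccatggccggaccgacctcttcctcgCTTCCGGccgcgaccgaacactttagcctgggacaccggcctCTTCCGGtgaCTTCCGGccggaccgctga
MRPS9: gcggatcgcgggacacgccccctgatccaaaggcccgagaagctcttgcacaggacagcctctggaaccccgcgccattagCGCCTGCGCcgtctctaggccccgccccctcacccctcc
MRPL47: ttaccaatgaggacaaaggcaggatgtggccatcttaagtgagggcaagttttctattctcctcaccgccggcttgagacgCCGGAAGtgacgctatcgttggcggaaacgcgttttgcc
MRPL52: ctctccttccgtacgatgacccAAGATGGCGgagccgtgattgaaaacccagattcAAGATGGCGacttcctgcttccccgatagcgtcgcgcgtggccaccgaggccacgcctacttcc
MRPS21: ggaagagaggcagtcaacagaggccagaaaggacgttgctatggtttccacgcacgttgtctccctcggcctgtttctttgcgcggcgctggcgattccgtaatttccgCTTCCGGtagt

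The small subunit gene MRPS12, counterpart of a bacterial protein of the decoding centre, had the lowest ARP-1 difference of all protein genes. Its intensity was 87.6 in MIF-KO ARP-1 and 121 in MIF-KO MM.1S, against 228 in CTR-KO ARP-1 and 104 in CTR-KO MM.1S. CTR-KO ARP-1 stood alone at the top, and the conditions overlapped. The difference was -1.38 in ARP-1 and 0.22 in MM.1S. Over both lines the mean difference was -0.58 with an SE of 0.46 (95% interval -1.75 to 0.60, limma, n = 2 arrays per condition), so the interval included 0.

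MRPS7, MRPS9 and MRPS17 also have bacterial counterparts, the first 2 of them in the head of the subunit. MRPS7 had 254 in MIF-KO ARP-1 and 391 in MIF-KO MM.1S, against 522 in CTR-KO ARP-1 and 311 in CTR-KO MM.1S, differences of -1.04 and 0.33. For MRPS9 the values were 109 and 138 in MIF-KO ARP-1 and MM.1S, against 194 and 129 in the CTR-KO cells, and the differences -0.84 and 0.10. MRPS17 had 117 and 155, against 213 and 153, in the same order, and its MM.1S difference was only 0.02. All 3 genes had their lowest value in MIF-KO ARP-1 and their highest in CTR-KO ARP-1.

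MRPS25, MRPS34, MRPS28 and MRPS27 likewise had their lowest value in MIF-KO ARP-1 and their highest in CTR-KO ARP-1. MRPS25, a mitochondrion-specific protein, had 99.1 in MIF-KO ARP-1 and 170.0 in MIF-KO MM.1S, against 211 in CTR-KO ARP-1 and 116 in CTR-KO MM.1S. Its differences were -1.09 in ARP-1 and 0.55 in MM.1S. MRPS34, also mitochondrion-specific and shown above with 3 ETS matches, had 362 and 531 in MIF-KO ARP-1 and MM.1S, against 649.9 and 425 in CTR-KO cells, differences of -0.85 and 0.32. MRPS28 differed by -0.73 and 0.08. MRPS27, a pentatricopeptide repeat protein, differed by -0.62 and 0.26 and completed the 8 small subunit genes at least 1.5-fold lower in MIF-KO ARP-1.

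MRPS14 and MRPS21 went the other way in ARP-1. MRPS14, whose bacterial counterpart lies in the head of the subunit, had 170.1 in MIF-KO ARP-1 and 143 in MIF-KO MM.1S, against 110.4 in CTR-KO ARP-1 and 187 in CTR-KO MM.1S. It had its lowest value in CTR-KO ARP-1, where most members had their highest, and its differences were 0.62 and -0.39. MRPS21 had 1571 and 1203 in MIF-KO ARP-1 and MM.1S, against 1130.2 and 1166 in CTR-KO cells, differences of 0.47 and 0.04. Both MIF-KO arrays thus lay above both CTR-KO arrays for MRPS21, which among the protein genes was otherwise seen only for MRPL9 (0.14 in ARP-1 and 0.32 in MM.1S). Over all tested genes 11.2% had both MIF-KO arrays on top.

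In the large subunit, MRPL15 and MRPL4 were the members with a difference past 1.5-fold in both lines, in opposite directions. The bacterial counterpart of MRPL4 reaches into the wall of the exit tunnel, and that of MRPL15 joins late in the assembly of the subunit. MRPL15 had 311 in MIF-KO ARP-1 and 640.2 in MIF-KO MM.1S, against 726 in CTR-KO ARP-1 and 386 in CTR-KO MM.1S. Its differences were -1.22 and 0.73. MRPL4 had 334 in MIF-KO ARP-1 and 520.4 in MIF-KO MM.1S, against 624 in CTR-KO ARP-1 and 319 in CTR-KO MM.1S, differences of -0.90 and 0.71. For both genes the high arrays were CTR-KO ARP-1 and MIF-KO MM.1S, so the conditions overlapped fully.

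MRPL35 and MRPL54 stood apart from this pattern, with lower values in MIF-KO cells of both lines. MRPL35, the counterpart of a small bacterial protein, had 115 in MIF-KO ARP-1 and 154 in MIF-KO MM.1S, against 214 in CTR-KO ARP-1 and 177 in CTR-KO MM.1S. Its mean difference was -0.55 with an SE of 0.33 (95% interval -1.40 to 0.30, limma). MRPL54, a mitochondrion-specific protein near the stalk of the subunit, had 43.2 in MIF-KO ARP-1 and 62.6 in MIF-KO MM.1S, against 74.3 in CTR-KO ARP-1 and 79.4 in CTR-KO MM.1S. Its differences were -0.78 and -0.34, and its mean was -0.56 with an SE of 0.26 (95% interval -1.23 to 0.10, limma). Only MRPL54 among the protein genes had at least 1.2-fold in a shared direction in ARP-1 and MM.1S, a criterion that 2.92% of tested genes met. Both MIF-KO arrays lay below both CTR-KO arrays for 11 protein genes, 9 large and 2 small, against 9.47% of tested genes. These 11 were MRPL28, MRPL34, MRPL35, MRPL36, MRPL37, MRPL43, MRPL48, MRPL54, MRPL57, MRPS11 and MRPS18B.

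Of the other large subunit genes lower in MIF-KO ARP-1, MRPL39 had 106 and 120.3 in MIF-KO ARP-1 and MM.1S, against 193 and 108 in CTR-KO cells. Its protein resembles part of a threonyl-tRNA synthetase, and it differed by -0.86 and 0.15. MRPL1, counterpart of the protein of the bacterial L1 stalk, had 47.1 and 74.8 in MIF-KO ARP-1 and MM.1S, against 82.7 and 56.3 in CTR-KO cells, differences of -0.81 and 0.41. MRPL3, whose bacterial counterpart reaches towards the peptidyl transferase centre, had 176 and 285 in MIF-KO ARP-1 and MM.1S, against 296 and 243 in CTR-KO cells, differences of -0.75 and 0.23. In each of these 3 genes MIF-KO ARP-1 held the lowest value and CTR-KO ARP-1 the highest. MRPL38, MRPL48, MRPL14, MRPL27, MRPL21 and MRPL18 completed the 13 large subunit genes at least 1.5-fold lower, with ARP-1 differences from -0.79 to -0.60. Just inside the threshold lay MRPL18 at -0.60, and just outside it MRPL57 at -0.58 and MRPS18A at -0.57.

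The members with the largest difference towards higher values in MIF-KO MM.1S were MRPL52 and MRPL47. MRPL52, a mitochondrion-specific protein of the central protuberance, had 31.9 in MIF-KO ARP-1 and 43.1 in MIF-KO MM.1S, against 42.1 in CTR-KO ARP-1 and 21.5 in CTR-KO MM.1S. Its difference was 1.005 in MM.1S and -0.40 in ARP-1, and its mean log2 intensity of 5.06 lay close to the filter at 4.97. MRPL47, a bacterial-type protein at the tunnel exit, had 412 and 560.1 in MIF-KO ARP-1 and MM.1S, against 554 and 322 in CTR-KO cells, differences of -0.43 and 0.80. MRPL13 (0.71) and MRPL42 (0.66) were the other 2 of the 6. For MRPL52, MRPL47, MRPL13 and MRPL42, and also for MRPL4, the lowest array was CTR-KO MM.1S, not MIF-KO ARP-1.

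**Figure D3:**
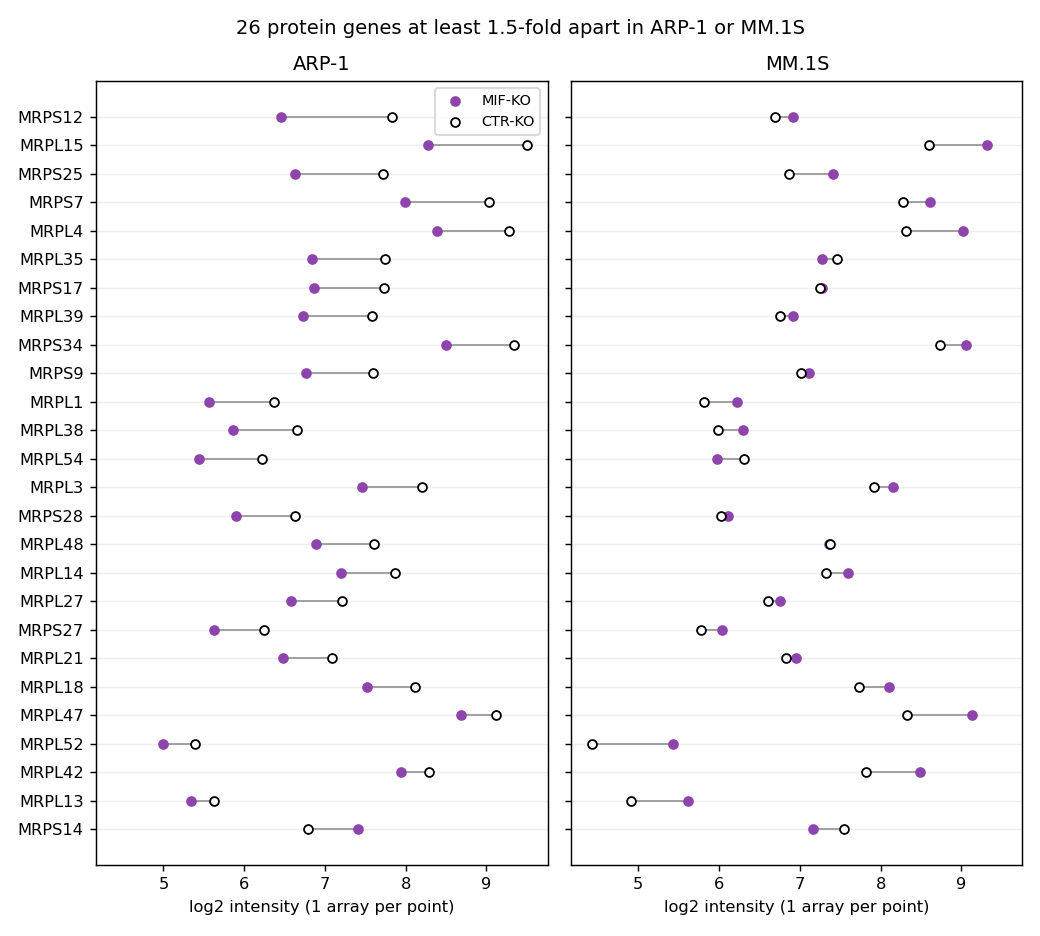
Log2 intensity of the 26 protein genes at least 1.5-fold apart in either line, in ARP-1 (left) and MM.1S (right); filled points are MIF-KO, open points CTR-KO, 1 array each, with no error bars. In ARP-1 the filled point lies to the left in all genes drawn except MRPS14, and in MM.1S it lies to the left for MRPL35, MRPL54, MRPL48 and MRPS14.

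Of the 3 sites of the large subunit listed here, the central protuberance had the lowest median in ARP-1. This knob at the top of the large subunit holds a structural RNA, which in mammalian mitochondria is a transfer RNA. The 7 measured proteins listed for it had medians of -0.60 in ARP-1 and 0.30 in MM.1S. At least 1.5-fold lower in MIF-KO ARP-1 were 4 of them (MRPL18, MRPL27, MRPL38 and MRPL48), against 11.9% of all tested genes. The 8 proteins around the exit tunnel had medians of -0.28 and 0.17, and 1 of them, MRPL39, was as much lower. The stalk of the large subunit recruits translation factors. Its 4 measured proteins, MRPL10, MRPL11, MRPL53 and MRPL54, had medians of -0.32 and -0.02, and MRPL12 of the same list had no probe set under its symbol. The 29 large subunit genes outside these lists, which may be incomplete, had medians of -0.44 and 0.12, with single genes from -1.22 to 0.14 in ARP-1.

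Genes with and without bacterial counterparts also had similar medians. The 41 genes with bacterial counterparts had medians of -0.43 in ARP-1 and 0.14 in MM.1S, and the 31 mitochondrion-specific ones -0.39 and 0.19. At least 1.5-fold lower in MIF-KO ARP-1 were 14 of the 41 and 7 of the 31.

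The genes that differed least over both lines were MRPL49, MRPL53, MRPS26 and MRPS33. MRPL49, a mitochondrion-specific protein, had 354 in MIF-KO ARP-1 and 327 in MIF-KO MM.1S, against 369.5 in CTR-KO ARP-1 and 325 in CTR-KO MM.1S. MRPL53, of the stalk, had 697 and 741 in MIF-KO ARP-1 and MM.1S, against 723 and 781 in CTR-KO cells. The median of the 44 protein genes outside the rule for naming was -0.35 in ARP-1 (range -0.72 to 0.47) and 0.14 in MM.1S (range -0.21 to 0.50). Of these 44, 6 were at least 1.5-fold lower in MIF-KO ARP-1.

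Of the 5 other transcripts with such symbols, 3 had higher and 2 lower values in MIF-KO ARP-1. MRPL20-AS1, which alone passed the filter, differed by 0.12 in ARP-1 and by 0.05 in MM.1S. The pseudogenes MRPL45P2 and MRPS31P5, below the filter, were the lower ones, at -0.13 and -0.10 in ARP-1. The pseudogene MRPL42P5 had 17 in MIF-KO ARP-1 and 15.1 in MIF-KO MM.1S, against 10.7 in CTR-KO ARP-1 and 13.7 in CTR-KO MM.1S, near the array medians. Probes of MRPL42, MRPL45 and MRPS31 may also bind messages of their pseudogenes, so their values are uncertain to that extent. Of the genes with several probe sets, MRPS2 differed by -0.48 and -0.35 in ARP-1, and MRPS16 by -0.26 and -0.17. The second probe set of MRPL44 lay below the array medians on all 4 arrays and is not read here. The 7 probe sets of MRPS18B held identical values.

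Between the lines, no gene passed either. The limma term for MM.1S minus ARP-1 called 0 protein genes and 0% of tested genes, with a lowest adjusted p of 0.99986 and 87 genes at an unadjusted p below 0.05, of which 0 were members. MRPL44, related to double-strand RNA nucleases, had the lowest mean line difference, -0.45 with an SE of 0.30 (95% interval -1.23 to 0.33, limma). Its intensities were 282 in MIF-KO MM.1S and 276 in CTR-KO MM.1S, against 356 in MIF-KO ARP-1 and 409 in CTR-KO ARP-1. Both MM.1S arrays were below both ARP-1 arrays for this gene. MRPS33 (-0.36), MRPS12 (-0.34), MRPL39 (-0.32) and MRPL20 (-0.32) followed at the low end. At the other end were MRPL54 (0.32), MRPS5 (0.30), MRPL33 (0.26), MRPS14 (0.26) and MRPS35 (0.25).

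The order of the lines depended on the condition in which they were compared. In MIF-KO cells the median member was higher in MM.1S than in ARP-1 by 0.28, and 10 protein genes were at least 1.5-fold higher, against 8.22% of tested genes. In CTR-KO cells the median MM.1S minus ARP-1 difference was -0.28, and 15 protein genes were at least 1.5-fold lower in MM.1S, against 11.1% of tested genes. These comparisons use the same 4 arrays as the differences by condition and are another view of them.

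Genes that serve the mitochondrial ribosome had similar medians. The list of 21 measured assembly factors had medians of -0.50 in ARP-1 and 0.15 in MM.1S, with 7 at least 1.5-fold lower in MIF-KO ARP-1 and 3 at least 1.5-fold higher in MIF-KO MM.1S. RPUSD3, a pseudouridine synthase of mitochondrial RNA, had 187 in MIF-KO ARP-1 and 321 in MIF-KO MM.1S, against 397 in CTR-KO ARP-1 and 198 in CTR-KO MM.1S, differences of -1.09 and 0.70. The methyltransferases of the mitochondrial ribosomal RNA MRM1 (-0.88 and 0.68) and MRM2 (-0.80 and 0.80) and the pseudouridine synthase TRUB2 (-0.78 and 0.52) had the same signs. The 11 measured mitochondrial translation factors had medians of -0.43 and 0.28, with 1 lower and 1 higher past 1.5-fold. In that list SLIRP differed by -0.77 and 0.57 and its partner LRPPRC, which binds and stabilises mitochondrial messages, by -0.47 and 0.53, while MTRF1L, a release factor, differed by -0.52 and 0.30 and GUF1 by -0.43 and 0.53.

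Proteins of the particle that carry other symbols were measured for DAP3, CHCHD1 and PTCD3, all of the small subunit. DAP3, a GTP-binding protein, differed by -0.14 and 0.47 in the ARP-1 and MM.1S comparisons. PTCD3 differed by -0.49 and 0.72, and CHCHD1 by -0.28 and -0.05. Of the genes for mitochondrial DNA replication and transcription, POLRMT, the RNA polymerase, differed by -0.36 and 0.07, and the helicase TWNK by -0.75 and 0.31.

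Ribosomal proteins of the cytosol did not show these medians. The median of the 42 tested cytosolic genes was -0.08 in either line. The comparison is limited to the 45 such genes with a probe set under their symbol. Intensities differed widely, for example 37.1 to 50.1 over the arrays for RPL14 and 7301 to 7784 for RPS28. How well probe sets at such levels follow a change was not tested. Among the named ones RPS26 differed by -1.03 and 0.45 and RPL32 by -0.50 and 0.73, while RPL39 differed by 0.06 and -0.95 and RPS15A by 0.19 and -0.90. The difference between the 2 kinds of ribosomal gene was not tested.

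Of the listed factors known to act on such promoters, only NRF1, YY1, MYC, MAX and ESRRA had a probe set under their symbol, and GABPA did not. These 5 regulators had medians of -0.10 in ARP-1 and -0.10 in MM.1S, and none reached 1.5-fold in either line. MYC had 1308 in MIF-KO ARP-1 and 1214 in MIF-KO MM.1S, against 1169 in CTR-KO ARP-1 and 1297 in CTR-KO MM.1S, differences of 0.16 and -0.10. YY1 differed by -0.24 and -0.31, ESRRA by -0.10 and -0.29, and MAX by -0.34 and 0.08. Message levels do not measure the activity of these proteins.

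**Figure D4:**
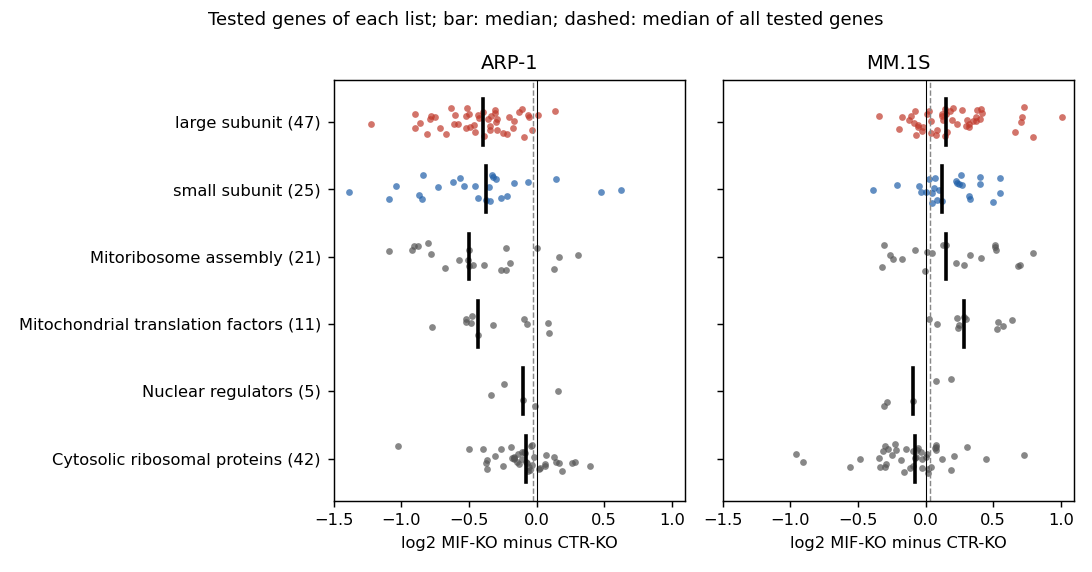
Log2 MIF-KO minus CTR-KO of the tested genes of each list in ARP-1 (left) and MM.1S (right); each point is a gene, the black bar is the median and the dashed line the median of all tested genes. The medians of both subunits, the assembly factors and the translation factors lie left of the dashed line in ARP-1 and right of it in MM.1S, while single genes lie on either side, and the median of the 42 cytosolic genes is -0.08 in both.

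Some promoters of these genes are shared with a neighbour on the other strand. In 16 protein genes the promoter window overlapped that of an opposite-strand gene, and 8 of them faced a tested gene. The MRPL46 and MRPS11 genes, a large and a small subunit protein, face each other and differed by -0.29 and -0.30 in ARP-1, and by 0.20 and -0.05 in MM.1S. MRPS27 and its neighbour PTCD2 differed by -0.62 and -0.62 in ARP-1, and MRPL57 and SKA3 by -0.58 and -1.17. The member and its neighbour had the same sign in ARP-1 in 6 of 8 cases, with MRPL46 and MRPS11 counted from both sides. Signs were opposite for MRPL50 and ZNF189 (-0.44 and 0.24) and for MRPL27 and EME1 (-0.63 and 0.03). Of all 7442 tested genes 3892 were below 0 in ARP-1, so shared signs are frequent without a shared promoter.

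Some plasma cell markers differed on the same arrays. SDC1, which encodes CD138, had 184 in MIF-KO ARP-1 and 471 in MIF-KO MM.1S, against 471 in CTR-KO ARP-1 and 337 in CTR-KO MM.1S, differences of -1.36 and 0.48. CD38 differed by -1.44 and 0.46, and MZB1 by 0.45 and -0.63. The other 3 markers of the list, IRF4, XBP1 and SLAMF7, differed by 0.29, 0.51 and 0.02 in ARP-1 and by -0.01, -0.05 and 0.37 in MM.1S. Whether these differences have a part in those of the ribosomal genes was not tested. Because the descriptions of the ARP-1 arrays oppose their titles, every sign in ARP-1 rests on the titles: with the arrays exchanged the ARP-1 median of the 73 genes is 0.39.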

How the data were processed

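The deposited series table holds linear intensities of probe sets on whole-transcript arrays. RMA and limma are named, per the submitters' processing notes, without version or role. The sources used here do not give the background step or the genome build. Values ran from 2.74 to 15935, and log2 was taken without a pseudocount. GEO's platform annotation gave 1 symbol for 16098 of 53617 probe sets and several for 0, and 37519 are unnamed here. All 78 symbols of the family matched a current RefSeq symbol.

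Genes with a mean log2 of at least 4.97, the median of all gene means, were tested: 7442 of 14884. The model was limma 3.58.1 in R 4.3.3 with terms for cell line and condition, eBayes with a trend, and Benjamini-Hochberg adjustment over all tested genes. It left 1 residual degree of freedom, and the prior added 3.99. Cell line pairs the arrays by the labels. Deviations of same-line arrays from the condition means correlated at r = -0.37 across genes. The script was tested on simulated data, with the same condition effect in both lines and noise independent between arrays. That test does not cover responses that differ between the lines. Arrays give no read depth, so their number limits the precision.

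Named members were those past 1.5-fold in either line (up to 15 per line and direction), those past 1.2-fold the same way in both lines, the 5 largest line differences per direction and the 4 smallest mean absolute differences. In other lists up to 4 genes were named, by mean absolute difference. Members that complete a count, share a probe or promoter, or lie at a threshold are also named, chosen after their values were seen. The members, lists and tests were chosen with earlier results of these data known. Alternatives were another scaling, filter, probe set summary, pseudocount, error model, fold threshold and subunit assignment, no pairing, each line alone, and the ARP-1 arrays exchanged.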

Additional observations from a re-analysis of the deposited data

Results flagged for a closer look

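MRPL15 and MRPL4 are listed because each differed by at least 1.5-fold between MIF-KO and CTR-KO cells in both lines, in opposite directions. Lower in ARP-1 and higher in MM.1S at that size were 3.24% of all tested genes, so 2 of 73 members is not above that share. The ARP-1 and MM.1S differences (log2 MIF-KO minus CTR-KO) were -1.22 and 0.73 for MRPL15, and -0.90 and 0.71 for MRPL4. The medians of all 73 protein genes also had opposite signs, -0.39 and 0.14. The large subunit genes had medians of -0.39 and 0.15, and the small subunit genes -0.38 and 0.12. With 1 array per line and condition, the difference between the lines was not tested.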

How the results depend on the processing

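The exchange of the ARP-1 arrays, as their descriptions read, had the greatest effect. It gave a median of 0.39 in ARP-1 and 0.28 over both lines (-0.11 as reported), 1 gene at least 1.5-fold lower in MIF-KO ARP-1 instead of 21, and 3 instead of 54 genes lower in ARP-1 and higher in MM.1S. With it limma called 401 of 7442 tested genes for condition. Of 72 tested members it called 3 (MRPL15, MRPL4 and MRPS25), a share not above that of all tested genes. The mean differences under the exchange were 0.35 for MRPL35, 0.22 for MRPL54 and 0.80 for MRPS12. The median over both lines was 0.14 without the ARP-1 pair and -0.39 without the MM.1S pair, and MRPS12 was then at 0.22 and -1.38. The large minus small subunit median in ARP-1 (-0.015) was 0.024 with the mean of all probe sets, 0.031 with log2 of the value plus 16 and 0.015 with the exchange. At a looser fold threshold 46 genes were lower in ARP-1 and 21 higher in MM.1S, and at 2-fold 4 and 1. The fit with no replicate block called 0 genes for condition, as did every other alternative that was fitted except the exchange, and 0 were called for line under any of them. Quantile normalization gave medians of -0.36 and 0.11, and arrays shifted to the same median gave -0.40 and 0.12. Differences of dim genes shrink with an added constant: MRPL52 in MM.1S was 0.66 with log2 of the value plus 16. The number of arrays limits the precision, and the conflict in the ARP-1 labels bears on results that use those arrays, not on the MM.1S differences or the promoter counts. MIF in ARP-1 followed the titles, with 541 in MIF-KO and 1092 in CTR-KO.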
